A study of Mus musculus with 12 samples.

Results

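The genes described here are 10 mesenchymal regulators and receptors: the transcription factors Twist1, Twist2, Prrx1, Snai1, Snai2, Zeb1 and Zeb2, the platelet-derived growth factor (PDGF) receptors Pdgfra and Pdgfrb, and the surface glycoprotein Thy1. They were chosen by name, with every probe set annotated to 1 of them, which gave 26 probe sets out of 34945 that named a single gene and 10 genes out of 18193 tested. Their RNA was measured on 12 Affymetrix mouse arrays in 2 cell lines, 3 arrays for each of 4 groups. Q7 cells are the wild-type line STHdhQ7/Q7, which came from HdhQ7/Q7 embryos, and Q111 cells are the mutant line STHdhQ111/Q111, from HdhQ111/Q111 knock-in embryos, in which the huntingtin gene carries an expanded CAG repeat. Untreated cells of each line were kept at 33 °C, the growth temperature of all cells. Heat-shocked cells of each line spent 6 h at 42 °C. All 4 groups grew in medium with serum and the selection drug G418 and were used up to passage 15. Each genotype was 1 line, so a difference between Q111 and Q7 cells can stem from the lines as much as from the allele, and these cannot be told apart. As background, lines of this kind are immortalised with a temperature-sensitive large T antigen, which was not measured here. The labels do not say whether the 3 arrays of a group came from separate cultures, so p-values speak only of the spread over these arrays, and that spread may be technical.

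Snail, Zeb and Twist factors are best known for the switch of epithelial cells to a migratory mesenchymal state, in which Snail and Zeb proteins bind E-box sequences and repress epithelial genes such as Cdh1. Twist proteins are basic helix-loop-helix factors that work as dimers with E proteins, and Prrx1 is a homeobox factor of limb and craniofacial mesenchyme. PDGF receptors are tyrosine kinases: the alpha receptor marks fibroblasts and, in brain, oligodendrocyte precursors, and the beta receptor marks pericytes. Thy1 is carried by many fibroblasts and mature neurons.

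Promoters are shown for 3 members: Pdgfra, which fell most after heat shock, Twist1, which passed the test in the other direction, and Snai1, since Snail factors are known to bind E-boxes of their own promoters. Each is the 250 bases before the start of the gene in RefSeq, build GRCm38.p6, 5′ to 3′ on the gene's strand. Capitals mark matches to GAANNTTC or TTCNNGAA, an adjoining pair of the units that heat shock factors bind, or to CACCTG, the E-box letters favoured by Snail and Zeb factors, each searched on both strands. The windows lie at chr5:75152001-75152250 (plus strand) for Pdgfra, at chr2:167537945-167538194 (plus strand) for Snai1 and at chr12:33957421-33957670 (plus strand) for Twist1.
Pdgfra: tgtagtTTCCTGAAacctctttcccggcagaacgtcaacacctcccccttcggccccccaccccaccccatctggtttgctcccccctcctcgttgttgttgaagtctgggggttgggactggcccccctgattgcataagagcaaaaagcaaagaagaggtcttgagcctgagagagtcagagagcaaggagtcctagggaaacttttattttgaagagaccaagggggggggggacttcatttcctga
Snai1: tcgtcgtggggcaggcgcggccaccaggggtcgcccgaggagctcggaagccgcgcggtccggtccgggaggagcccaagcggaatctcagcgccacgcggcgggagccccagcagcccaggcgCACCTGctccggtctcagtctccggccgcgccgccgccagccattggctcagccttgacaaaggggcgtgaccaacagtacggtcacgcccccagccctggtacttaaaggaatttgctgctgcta
Twist1: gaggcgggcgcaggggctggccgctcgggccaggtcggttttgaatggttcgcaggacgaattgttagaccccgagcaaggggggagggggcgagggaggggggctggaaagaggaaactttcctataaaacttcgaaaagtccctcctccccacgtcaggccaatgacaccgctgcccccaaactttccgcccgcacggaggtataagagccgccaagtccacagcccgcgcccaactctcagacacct
Entries were found for 6 of the 10 members, with 9 windows in all, and not for Snai2, Zeb1, Pdgfrb and Thy1. The adjoining pair lay in 2 of the 9 windows (TTCCTGAA starting 244 bases before the start of Pdgfra, and GAAGTTTC starting 10 bases before 1 start of Zeb2) and in 12.8% of all 32851 promoter windows of this length. The letters CACCTG lay in 1 member window, that of Snai1, starting 126 bases before its start, and in 17.2% of all windows. The wider E-box CANNTG, which includes CACCTG, lay in 2 of the 9 windows and in 66.2% of all. These matches describe letters in a window and say nothing of binding.

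Levels are log2 values made with RMA. The highest value of 27 probe sets for bacterial RNA, 5.14, served as the bound of background range, and 9 of the 10 members exceeded it on at least 1 array. Of the 26 probe sets 22 did. As the check of the labels, Htt showed a log2 difference of -1.29 between untreated Q111 and untreated Q7 cells, lower in the mutant line (SE 0.17, limma adjusted p = 0.000265), and the array does not read the length of the repeat. Fibroblast markers were above background range in 5 or 6 of 8 genes in every group, with mean levels of 8.21 to 8.27 on untreated Q7 arrays and 9.01 to 9.18 on untreated Q111 arrays. Between the untreated lines 2 of the 8 were called higher in Q111 cells, 1 was called lower and 5 were not called. Of all genes 5.11% were higher and 5.68% lower. The fibroblast marker Pdpn went against the mean, with -2.83 (Q111 minus Q7). Neural progenitor markers were above it in 8 of 10 genes in untreated Q7 cells and in 5 of 10 in untreated Q111 cells, with mean levels of 7.25 to 7.34 and 5.57 to 5.69. Between the untreated lines 4 of the 10 were called lower in Q111 cells and 6 were not called. Pericyte and smooth muscle markers were above the bound in 4 of 8 genes in untreated cells of each line. Neuron markers were above it in 5 of 9 genes in untreated Q7 and 4 of 9 in untreated Q111 cells. Of 8 endothelial markers none was above it in untreated cells of either line, and of 8 oligodendrocyte precursor markers 1 was in untreated Q7 and 2 were in untreated Q111 cells. The part of these cell type markers in the results below was not tested. The third heat-shocked Q111 array stood apart from the others of its group: the SD of its differences from them over probe sets was 0.76 and 0.84, against 0.39 between the other two, and member counts without it are given beside the results. In bulk RNA, fewer cells of a type and less RNA per cell cannot be told apart.

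**Figure D1:**
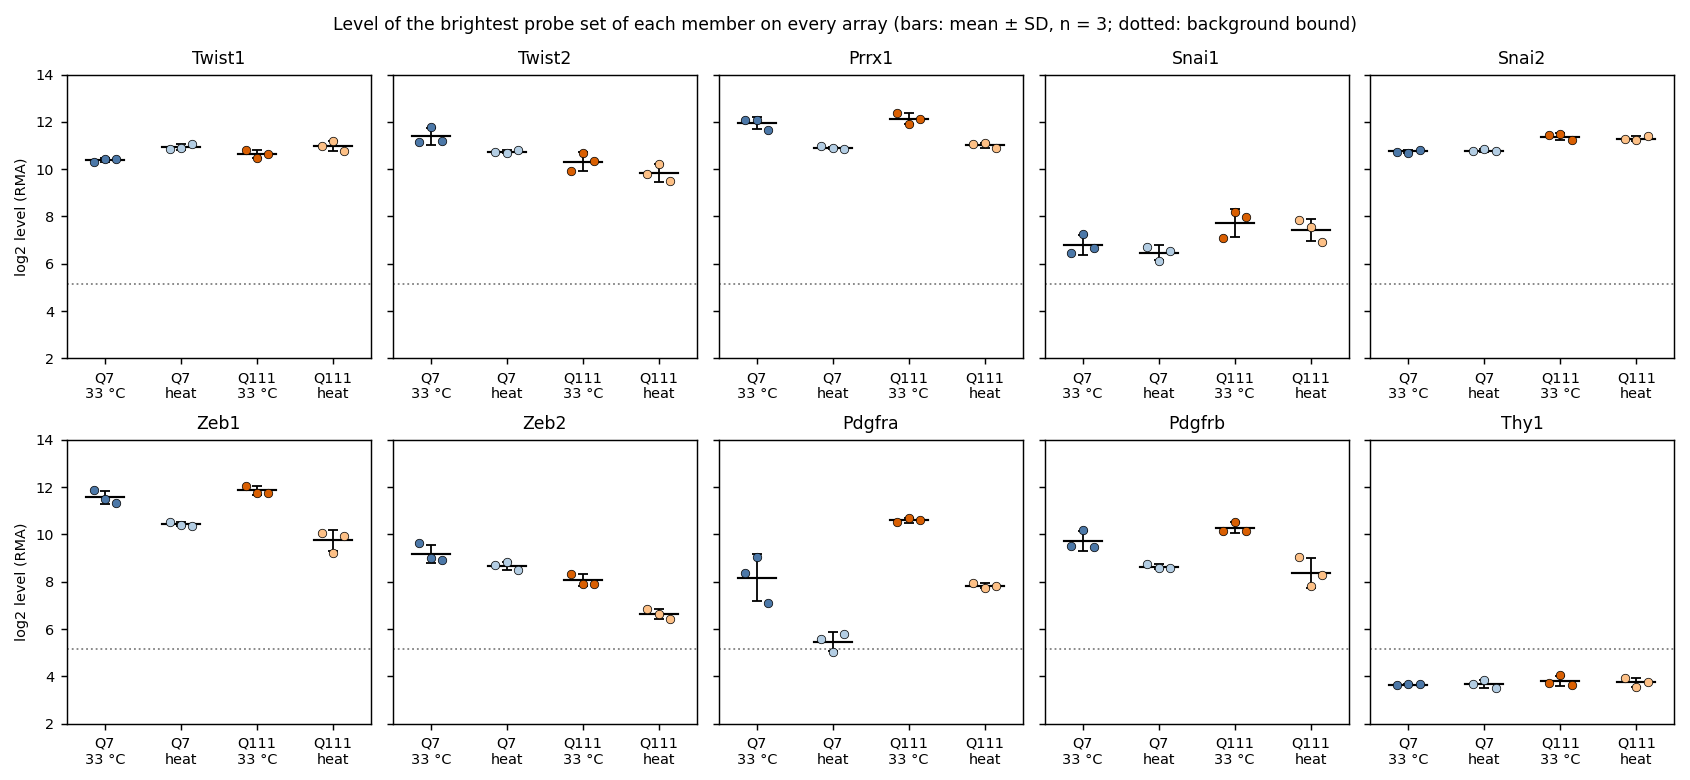
Log2 level (RMA, vertical axis) of the brightest probe set of each of the 10 members on every array, by group. Points are arrays, horizontal bars the mean and vertical bars the SD (n = 3), and the dotted line is the background bound of 5.14. Pdgfra lies highest in untreated Q111 cells (mean 10.61) and lowest in heat-shocked Q7 cells (mean 5.46), and Thy1 stays under the bound on all 12 arrays.

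The question of the first comparison is what 6 h at 42 °C does to these genes in each line. After heat shock 4 members were lower in Q7 cells: Pdgfra, Zeb1, Pdgfrb and Prrx1. In Q111 cells the same 4 were lower, and Zeb2 as well. Twist1 was the only member that rose past the test, in Q7 cells by 0.56. With the brightest probe set of each gene, 5 of 10 members thus passed in Q7 cells (1 higher, 4 lower), where 30.4% of all genes passed (12.3% higher and 18.1% lower). In Q111 cells 5 of 10 passed, all 5 lower, where 48.1% of all genes passed (20.0% higher and 28.2% lower). The median log2 change of the 10 members was -0.58 in Q7 and -0.80 in Q111 cells, against 0.00 and -0.02 over all genes. The share of members called in Q111 cells is near that of all genes. Among the 26 probe sets tested separately, 11 passed in Q7 cells (1 higher, 10 lower) and 13 in Q111 cells (all lower), where 24.1% and 42.1% of all probe sets passed (10.0% and 19.8% higher, 14.1% and 22.3% lower).

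RNA quality moved with heat shock. The actin control probes' 3′ minus 5′ level was 0.54 ± 0.16 (SD, n = 3) in untreated and 1.48 ± 0.12 in heat-shocked Q7 cells, and 0.72 ± 0.36 and 1.25 ± 0.23 in Q111 cells. With this level as a covariate in limma no member passed in Q7 cells (2 did at an unadjusted p under 0.05) and 436 genes did in place of 5525; in Q111 cells 5 members and 4381 genes in place of 8758 did. The changes in Q7 cells with the covariate were -2.55 for Pdgfra, -0.79 for Zeb1, -0.67 for Prrx1, -0.57 for Pdgfrb and 0.76 for Twist1, with SEs from 0.29 to 0.80 in place of 0.14 to 0.38. When arrays were centred on their gene median, heat shock changes shifted up by 0.35 in Q7 and by 0.73 in Q111 cells, which moved the share of higher calls among all called genes from 40.4% to 70.1% and from 41.5% to 82.5%. The falls of Pdgfra, Zeb1, Pdgfrb and Prrx1 kept their sign in both lines under all scalings. Without the third heat-shocked Q111 array 6 members passed in Q111 cells, 1 higher and 5 lower.

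**Figure D2:**
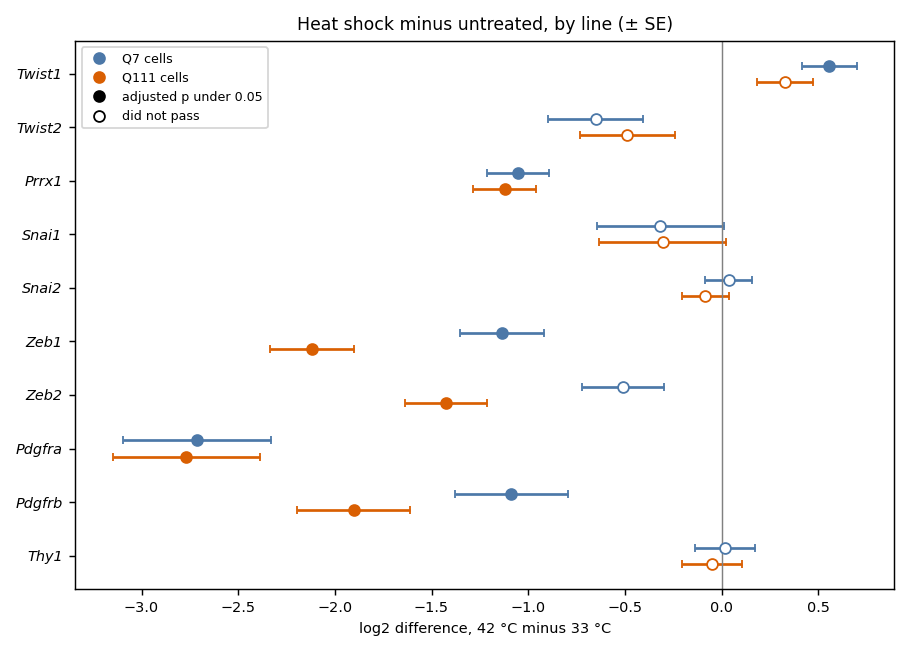
Log2 difference between 42 °C and 33 °C (horizontal axis) with its SE for each member's brightest probe set in Q7 cells (blue) and Q111 cells (orange). Filled points passed at a limma adjusted p under 0.05. Pdgfra lies farthest to the left in both lines (-2.71 and -2.77), and Twist1 is the only filled point to the right of 0.

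Pdgfra encodes the alpha receptor, which binds the A, B and C chains of PDGF. Its brightest probe set read 8.38, 9.03 and 7.11 on the untreated Q7 arrays and 5.57, 5.02 and 5.80 after heat shock. In Q111 cells it read 10.51, 10.71 and 10.59 untreated and 7.96, 7.74 and 7.82 after heat shock. The groups did not overlap in either line, and 1 of the 3 heat-shocked Q7 arrays lay in background range. The change was -2.71 in Q7 cells (SE 0.38, limma adjusted p = 0.000339), a 6.56-fold fall. It was -2.77 in Q111 cells (SE 0.38, adjusted p = 0.000186), a 6.81-fold fall. The difference between these effects was -0.06, with a 95% interval from -1.24 to 1.13 and an adjusted p of 0.969. With the actin level as a covariate the change in Q7 cells was -2.55 (adjusted p = 0.133). Of the 2 dimmer Pdgfra probe sets, 1438946_at changed by -1.25 in Q7 cells (adjusted p = 0.104) and by -1.60 in Q111 cells (adjusted p = 0.0276). The other, 1421916_at, passed in both lines, but its heat-shocked arrays lay in background range, which leaves a fall of at least 3.58-fold in Q111 cells.

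Pdgfrb, the beta receptor, for which the B and D chains are ligands, read 9.50, 10.20 and 9.47 in untreated Q7 cells and 8.75, 8.57 and 8.58 after heat shock. In Q111 cells the levels were 10.16, 10.54 and 10.16 untreated and 9.06, 7.81 and 8.29 after heat shock. No heat-shocked array reached the untreated ones of its line. The change was -1.09 in Q7 cells (SE 0.29, adjusted p = 0.0148). In Q111 cells it was -1.90 (SE 0.29, adjusted p = 0.000365). Without the second untreated Q7 array, the highest of its group, the change in Q7 cells was -0.85 (adjusted p = 0.0698), and with arrays centred on their median it was -0.74 (adjusted p = 0.0504). The other Pdgfrb probe set, 1417148_at, passed in both lines with changes of -1.21 and -2.16. The effects differed between the lines by -0.82 (95% interval -1.72 to 0.09, adjusted p = 0.286).

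Thy1 stayed in background range on every array, between 3.51 and 4.04, so neither its level nor a change can be given.

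Zeb1 and Zeb2 are zinc finger and homeodomain repressors. Zeb1 read 11.87, 11.51 and 11.33 in untreated Q7 cells and 10.51, 10.42 and 10.37 after heat shock. In Q111 cells it read 12.07, 11.75 and 11.77 untreated and 10.05, 9.23 and 9.94 after heat shock. The groups were apart in both lines, with a change of -1.14 in Q7 cells (SE 0.22, adjusted p = 0.00234), a 2.20-fold fall. For Q111 cells the change was -2.12 (SE 0.22, adjusted p = 3.2e-05), a 4.34-fold fall. A dimmer Zeb1 probe set, 1443005_at, changed by -1.99 in Q7 cells and by -2.78 in Q111 cells, where a heat-shocked array read 4.97, in background range. The third, 1446127_at, changed by -0.41 in Q7 cells (adjusted p = 0.562) and by -1.28 in Q111 cells (adjusted p = 0.0387), where its arrays overlapped. Its heat-shocked means of 4.79 in Q7 and 4.75 in Q111 cells were in background range. The fourth, 1420243_at, was in background range throughout.

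Zeb2 read 9.62, 9.01 and 8.92 in untreated Q7 cells and 8.72, 8.82 and 8.48 after heat shock. It read 8.35, 7.92 and 7.90 in untreated Q111 cells and 6.84, 6.64 and 6.42 after heat shock. The groups did not overlap in either line, but the change passed in Q111 cells alone: for Q7 cells it was -0.51 (SE 0.21, adjusted p = 0.0938), for Q111 cells -1.43 (SE 0.21, adjusted p = 0.0003). Zeb2 probe sets differed in their calls. In Q7 cells 1422748_at (-0.93) and 1456389_at, lower by at least 2.51-fold, passed where the brightest did not. In Q111 cells 1458941_at read 4.41, 4.35 and 5.36 untreated and 5.45, 5.96 and 7.71 after heat shock, with 2 of 3 untreated arrays in background range, and did not pass (adjusted p = 0.0671). The set 1454200_at never left background range and can give no direction. Averaged over all 5 probe sets, those in background range included, Zeb2 passed in Q7 cells (-0.62, adjusted p = 0.0228) and not in Q111 cells (-0.11, adjusted p = 0.655), and the difference of the effects was 0.51 (adjusted p = 0.294) instead of -0.92.

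**Figure D3:**
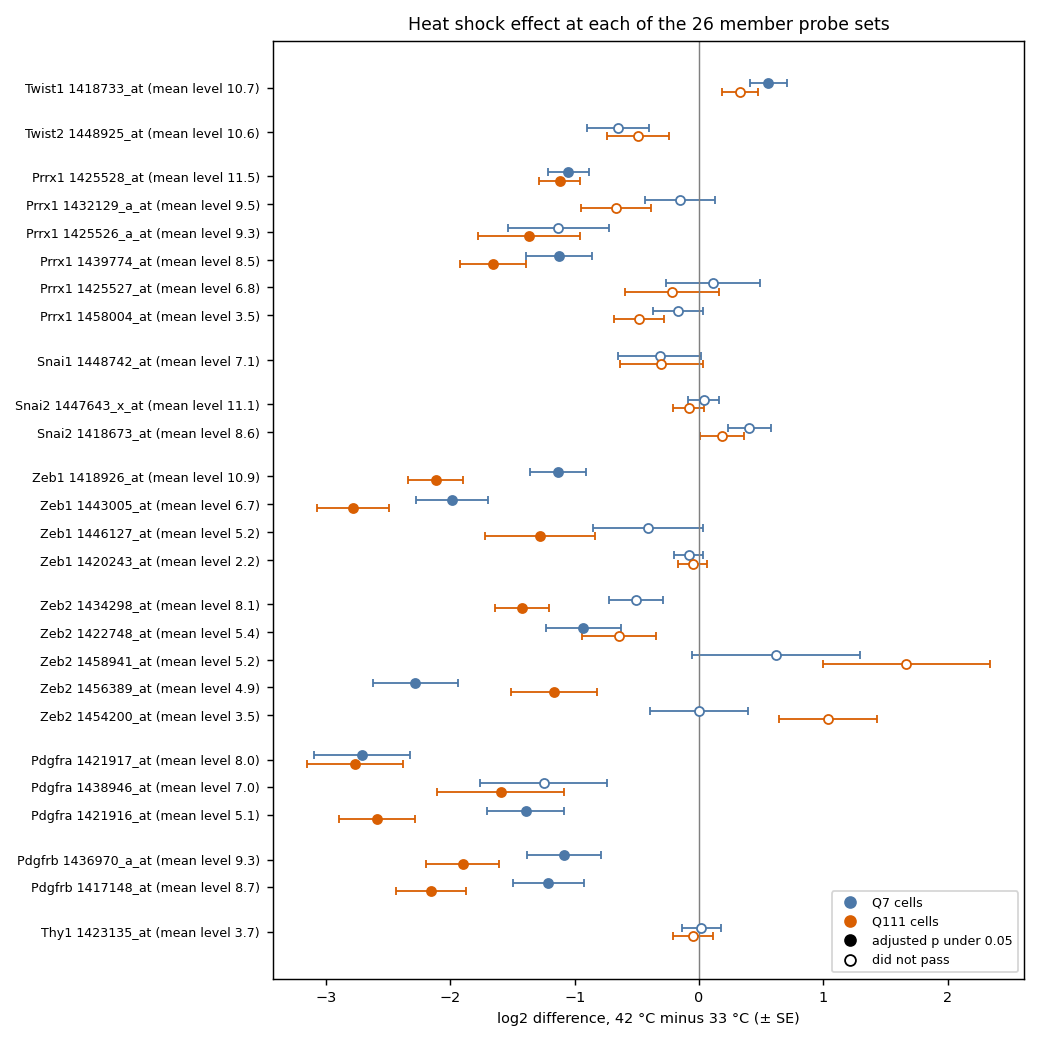
Log2 difference between 42 °C and 33 °C (horizontal axis) with its SE at each of the 26 probe sets of the 10 members, in Q7 cells (blue) and Q111 cells (orange). Names carry the probe set and its mean level over all arrays; filled points passed at a limma adjusted p under 0.05. All 13 filled orange points lie left of 0, and the Zeb2 points right of 0 are those of 1458941_at and 1454200_at, which were read in or near background range.

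Prrx1 read 12.09, 12.09 and 11.67 in untreated Q7 cells and 10.96, 10.89 and 10.84 after heat shock. In Q111 cells it read 12.37, 11.91 and 12.12 untreated and 11.05, 11.10 and 10.88 after heat shock. The groups did not overlap. The change was -1.05 for Q7 cells (SE 0.16, adjusted p = 0.0006), a 2.07-fold fall. For Q111 cells it was -1.12 (SE 0.16, adjusted p = 0.000254), a 2.18-fold fall. Of its 6 probe sets, 1439774_at passed in both lines (-1.13 and -1.66) and 1425526_a_at in Q111 cells (-1.37), while 1432129_a_at, 1425527_at and the dark 1458004_at passed in neither. The mean over all 6 gave -0.59 in Q7 cells (adjusted p = 0.0694), and centring arrays on their median gave -0.39 in Q111 cells (adjusted p = 0.073).

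Twist1 read 10.30, 10.44 and 10.41 in untreated Q7 cells and 10.87, 10.88 and 11.08 after heat shock. In Q111 cells the levels were 10.80, 10.48 and 10.65 untreated and 10.96, 11.18 and 10.78 after heat shock. The Q7 groups were apart and the Q111 groups overlapped. The change was 0.56 in Q7 cells (SE 0.14, adjusted p = 0.0121) against 0.33 for Q111 (SE 0.14, adjusted p = 0.0792), and the effects differed by -0.23 (95% interval -0.68 to 0.22, adjusted p = 0.562). The call in Q7 cells was lost without the third heat-shocked Q7 array (0.49, adjusted p = 0.0578). In Q111 cells a call was gained without the third heat-shocked Q111 array (0.42, adjusted p = 0.0396), with further quantile normalization (0.37, adjusted p = 0.0403) and with arrays centred on their median (1.06, adjusted p = 0.00026). Its relative Twist2 pointed down in both lines, by -0.65 (adjusted p = 0.0676) in Q7 and -0.49 (adjusted p = 0.122) in Q111 cells, and passed in neither. It passed in Q7 cells under 7 of 23 alternatives, at adjusted p from 0.0327 to 0.0495, and in Q111 cells without the second heat-shocked Q111 array (-0.69, adjusted p = 0.0449), while median centring turned the Q111 value to 0.24.

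The Snail factors were not called in either line. Snai1 read 6.47, 7.25 and 6.65 in untreated and 6.73, 6.13 and 6.56 in heat-shocked Q7 cells, and 7.07, 8.19 and 7.96 in untreated and 7.84, 7.54 and 6.93 in heat-shocked Q111 cells. Treated and untreated arrays overlapped in both lines. Its changes were -0.32 (95% interval -1.04 to 0.41) and -0.30 (95% interval -1.03 to 0.42). Snai2, the relative best known from neural crest, changed by 0.04 (95% interval -0.23 to 0.30) and -0.08 (95% interval -0.35 to 0.18), and the latter became 0.64 (adjusted p = 0.00798) with arrays centred on their median. Its brightest probe set, 1447643_x_at, is of a kind whose probes may match other sequences too. The other Snai2 set, 1418673_at, read 8.12, 7.91 and 8.10 in untreated and 8.62, 8.45 and 8.28 in heat-shocked Q7 cells, without overlap. In Q111 cells its mean was 8.82 untreated and 9.01 after heat shock, with overlap. This set passed in neither line.

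Whether heat shock acted differently on these genes in the lines was tested as a difference of the effects, in which no member of 10 passed, where 5.72% of all genes passed (1.21% higher and 4.51% lower). No member probe set of 26 passed either, where 2.68% of all probe sets did (0.611% higher and 2.07% lower). At an unadjusted p under 0.05 in limma 2 members, Zeb1 and Zeb2, passed. The falls of Zeb1 and Zeb2 were larger in Q111 cells by -0.98 (SE 0.31, adjusted p = 0.0919) and -0.92 (SE 0.30, adjusted p = 0.101). Their 95% intervals ran from -1.66 to -0.30 and from -1.57 to -0.26. Without the first untreated Q7 array Zeb2 passed (-1.14, adjusted p = 0.0396) at its brightest probe set. Its other 4 sets all had arrays in background range. Among them 1422748_at, above the bound on 8 of 12 arrays, gave a difference of 0.29 (adjusted p = 0.764). Its mean in heat-shocked Q111 cells was 4.78, in background range. The sets 1458941_at, 1456389_at and 1454200_at exceeded the bound on 6, 4 and 0 arrays, and their differences are not given. Readings in background range limit the fall that these 4 sets can show in Q111 cells, so they cannot decide whether the fall was larger there. The remaining 8 members had intervals that include 0, the widest of them that of Pdgfra.

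The next question is how the mutant line differs from the wild-type line at 33 °C. Pdgfra was 5.38-fold higher in Q111 cells and Snai2 1.55-fold higher, and Zeb2 and Twist2 were lower by 2.18-fold and 2.10-fold. These 4 of 10 members passed, where 10.8% of all genes passed (5.11% higher and 5.68% lower), and the median difference of all 10 members was 0.28 against 0.00 over all genes. Of the 26 probe sets 8 passed, 5 higher and 3 lower, where 6.78% of all probe sets did (3.16% higher and 3.62% lower). The heat shock and line comparisons share arrays, so their values stand side by side and are not independent of each other.

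The Pdgfra levels given above put every untreated Q111 array above every untreated Q7 array, with means of 10.61 ± 0.10 and 8.18 ± 0.98 (SD, n = 3). The difference was 2.43 (SE 0.38, adjusted p = 0.00121), and the dimmer probe sets passed as well, with 2.00 and 1.81. Pdgfrb was higher by 0.56 (SE 0.29, adjusted p = 0.329), with overlapping arrays. A fit on the untreated arrays alone with the replicate number as a block, chosen after the data were seen, gave Pdgfrb the same difference with an adjusted p of 0.021.

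Snai2 read 10.73, 10.70 and 10.82 in Q7 and 11.44, 11.48 and 11.22 in Q111 cells at 33 °C. All Q111 arrays were higher, by 0.63 (SE 0.12, adjusted p = 0.00497), and the other Snai2 probe set, 1418673_at, passed with 0.78. Snai1 was higher by 0.95 (SE 0.33, adjusted p = 0.104) with 1 overlapping Q111 array, the first, and passed without that array (1.29, adjusted p = 0.0254), with median centring (0.95, adjusted p = 0.0313) and with the block on the untreated arrays (0.95, adjusted p = 0.00548).

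Zeb2 differed by -1.13 (SE 0.21, adjusted p = 0.00412) with no overlap, and 1456389_at passed in the same direction (-1.37) with 1 of its 3 Q111 arrays above background range. Zeb1 differed by 0.29 (95% interval -0.19 to 0.77, adjusted p = 0.584). Twist2 read 11.16, 11.80 and 11.20 in Q7 and 9.92, 10.69 and 10.34 in Q111 cells. Every Q111 array was lower, with a difference of -1.07 (SE 0.25, adjusted p = 0.0145). That call was lost without the second untreated Q7 array (-0.86, adjusted p = 0.0699) or the first untreated Q111 array (-0.87, adjusted p = 0.0636). Twist1 differed by 0.26 (95% interval -0.06 to 0.58) and Prrx1 by 0.18 (95% interval -0.17 to 0.54), and neither passed.

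**Figure D4:**
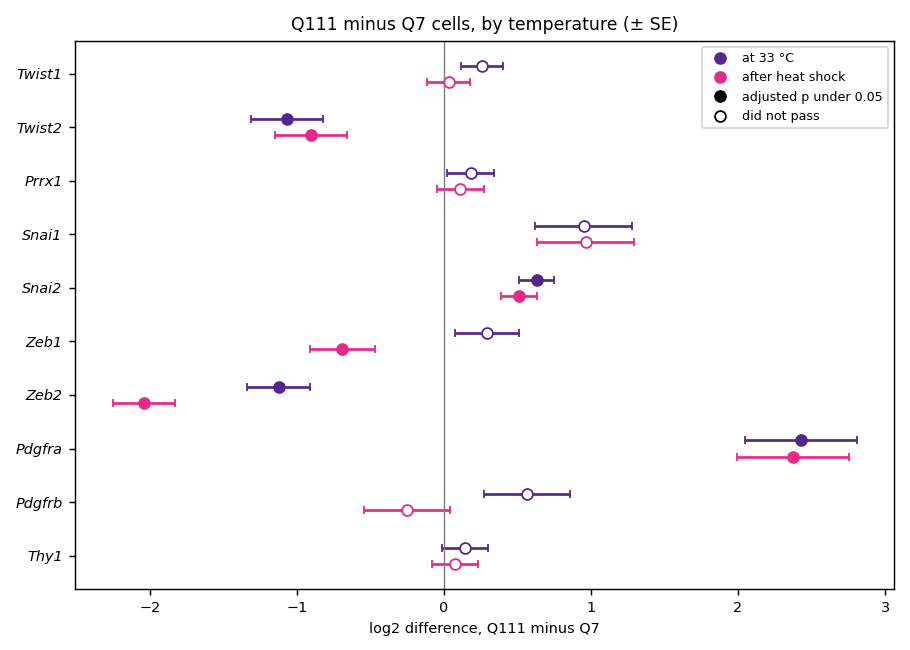
Log2 difference between Q111 and Q7 cells (horizontal axis) with its SE for each member's brightest probe set at 33 °C (violet) and after heat shock (pink). Filled points passed at a limma adjusted p under 0.05. Pdgfra lies near 2.4 at both temperatures, and Zeb2 moves from -1.13 to -2.04.

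After heat shock the same 4 members differed between the lines in the same direction, and Zeb1 was lower in Q111 cells. These 5 of 10 passed (2 higher, 3 lower) where 22.1% of all genes passed (6.58% higher and 15.5% lower), with a member median of 0.05 against 0.00. Pdgfra was higher in Q111 cells by 2.37 (SE 0.38, adjusted p = 0.00111) and Snai2 by 0.51 (SE 0.12, adjusted p = 0.0114). These are their brightest probe sets, and no dimmer set of either gene passed here. The brightest Pdgfra set averaged 5.46 in heat-shocked Q7 cells, near the background bound, and 1421916_at was in background range in both heat-shocked groups. Zeb2 was lower by -2.04 (SE 0.21, adjusted p = 5.58e-05) at its brightest probe set. The mean over all its sets, those in background range included, differed by -0.20 (adjusted p = 0.471). Of these sets 1456389_at and 1454200_at were in background range in both heat-shocked groups, which limits the difference that this mean can show. Twist2 was lower by -0.91 (SE 0.25, adjusted p = 0.0213), a call that 7 of 23 alternatives lost: the actin covariate (-0.82, adjusted p = 0.0642), median centring (-0.53, adjusted p = 0.0634), a threshold of 0.01, and leaving out the first or the third heat-shocked array of Q7 cells (adjusted p = 0.0618 and 0.0732) or of Q111 cells (0.0538 and 0.0654). Zeb1 was lower by -0.69 (SE 0.22, adjusted p = 0.0428), and 13 of 23 alternatives lost that call, the leaving out of any heat-shocked Q7 array among them. Snai1 was higher by 0.96 (SE 0.33, adjusted p = 0.058) and passed without the third heat-shocked Q111 array (1.22, adjusted p = 0.0247), without the first untreated Q111 array (adjusted p = 0.031), with median centring (1.34, adjusted p = 0.00267), with further quantile normalization (1.22, adjusted p = 0.0184) and with brighter genes only (adjusted p = 0.0405). Of the 26 probe sets 4 passed, 2 in each direction, where 15.4% of all did (4.73% higher and 10.7% lower). Without the first or the third heat-shocked Q7 array 3 members passed, and without the third heat-shocked Q111 array 5 did, 3 higher and 2 lower.

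The levels of each member were ordered over the groups. For Pdgfra it ran from untreated Q111 (mean 10.61) through untreated Q7 (8.18) and heat-shocked Q111 (7.84) to heat-shocked Q7 cells (5.46), and the middle pair overlapped. For Pdgfrb and Zeb1 it ran from untreated Q111 (10.29 and 11.86) and untreated Q7 cells (9.72 and 11.57), which overlapped, to the heat-shocked groups. Zeb2 ran from untreated Q7 (9.18) through heat-shocked Q7 (8.67) and untreated Q111 (8.06) to heat-shocked Q111 cells (6.63) with no overlap, although the Q7 pair did not pass. For Twist2 it ran from untreated Q7 (11.39) through heat-shocked Q7 (10.74) and untreated Q111 (10.32) to heat-shocked Q111 cells (9.83), and the last 3 of these overlapped with their neighbours. Prrx1 was higher in untreated Q111 (12.13) and Q7 cells (11.95) than in heat-shocked Q111 (11.01) and Q7 cells (10.90), and each of these pairs overlapped. Snai2 was higher in both Q111 groups (11.38 untreated and 11.29 heat-shocked) than in both Q7 groups (10.75 and 10.79), and overlapped within each line. Twist1 was highest in heat-shocked Q111 (10.97) and Q7 cells (10.94), which overlapped, then came untreated Q111 (10.64) and untreated Q7 cells (10.38), which did not. Snai1 ran from untreated Q111 (7.74) through heat-shocked Q111 (7.43) and untreated Q7 (6.79) to heat-shocked Q7 cells (6.47), and every neighbouring pair overlapped.

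The ligands were read beside the receptors from a list of the 4 PDGF genes. Pdgfa, the A chain, rose after heat shock in both lines, by 1.45 in Q7 (SE 0.14, adjusted p = 4.02e-05) and by 0.93 in Q111 cells (SE 0.14, adjusted p = 0.000381). Pdgfb, the B chain, rose in Q7 cells from 7.01, 7.29 and 7.03 to 8.22, 7.43 and 7.87, a change of 0.73 (SE 0.24, adjusted p = 0.0394). In Q111 cells Pdgfb and Pdgfd were in background range on all 6 arrays at their brightest probe sets. Against this bound, Pdgfb was at least 3.91-fold lower in untreated Q111 cells (adjusted p = 1.45e-06) and Pdgfd at least 7.93-fold lower (adjusted p = 1.16e-07). Pdgfc was lower in Q111 cells by -0.70 (adjusted p = 0.00555). At their brightest probe sets, 2 of the 4 ligands rose in Q7 and 1 in Q111 cells after heat shock. In the same way 3 were lower in Q111 cells at 33 °C and all 4 after heat shock. Beside this list and those below, 12.3% of all genes rose and 18.1% fell in Q7 cells after heat shock. In Q111 cells 20.0% rose and 28.2% fell. Lower in Q111 than in Q7 cells were 5.68% of all genes at 33 °C and 15.5% after heat shock.

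**Figure D5:**
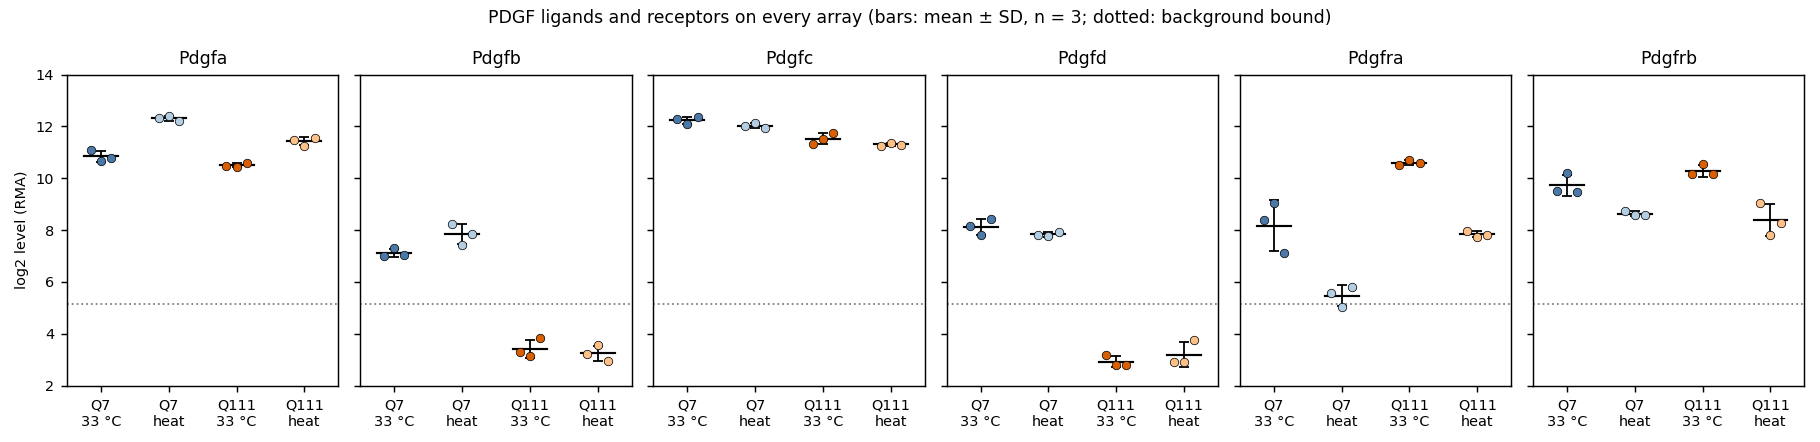
Log2 level (RMA, vertical axis) of the brightest probe set of the 4 PDGF ligand genes and the 2 receptor genes on every array, by group. Points are arrays, horizontal bars the mean and vertical bars the SD (n = 3), and the dotted line is the background bound. Pdgfb and Pdgfd lie under the bound in Q111 cells, and Pdgfra lies highest in untreated Q111 cells.

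Of 15 genes of PDGF receptor signalling 2 rose and 4 fell in Q7 cells, and 2 rose and 8 fell in Q111 cells, with medians of -0.22 and -0.59. These medians turned positive (0.13 and 0.14) with arrays centred on their median, where the medians over all genes were 0.35 and 0.71. The adaptor Nck1 rose in both lines (1.49 and 1.47). Plcg1, a phospholipase that the receptors recruit, fell by 0.93 and 1.57 on the log2 scale, but the mean of its probe sets had the opposite sign.

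TGF-beta signalling induces many Snail and Zeb genes. Of its 14 listed ligands, receptors and Smads 2 rose and 6 fell in Q7 cells and 2 rose and 9 fell in Q111 cells, with medians of -0.41 and -1.05. Tgfb2 fell by 1.38 and 2.11 and Tgfb1 by 1.36 and 2.32 on the log2 scale. Smad3, the signal carrier, changed by -0.38 in Q7 and -2.36 in Q111 cells, and this difference passed (-1.99, adjusted p = 0.00184).

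Genes on which these factors act were read from 2 lists. Of 21 measured mesenchymal effector genes 1 rose and 11 fell in Q7 cells (median -0.55), and 2 rose and 11 fell in Q111 cells (median -0.44). Centring on the array median turned the Q111 counts to 9 higher and 3 lower (median 0.29). With that centring the median over all genes in Q111 cells was 0.71, and 82.5% of all called genes were higher. Cdh11 fell by 2.42 and 2.21 and Mmp14 by 1.57 and 2.40 on the log2 scale. Cdh2, N-cadherin, fell at its brightest probe set by 0.46 (adjusted p = 0.0458) in Q7 and 0.42 (adjusted p = 0.0433) in Q111 cells. The latter turned to 0.30 with that centring. With every probe set tested separately, this set passed in neither line (limma adjusted p = 0.0609 and 0.0535). The dimmer Cdh2 set then passed in both, with -1.28 (adjusted p = 0.000503) and -0.68 (adjusted p = 0.0118). Vim passed in neither line at its brightest set. Of its dimmer sets 1 passed, in Q111 cells alone (-0.46, adjusted p = 0.014), and the other passed in neither. Of 20 epithelial genes 1 rose and 2 fell in Q7 cells and 6 rose and 1 fell in Q111 cells. Cdh1, E-cadherin, read 6.33, 6.64 and 6.29 in untreated Q7 cells and was in background range in all 9 other arrays, at least 2.42-fold lower. Marveld2, a tight junction gene, rose from background range by at least 1.92-fold in Q7 and 3.94-fold in Q111 cells.

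The partners of Twist proteins were a list of 9 genes, all above background range in every group. Id2, an inhibitor of basic helix-loop-helix dimers, rose after heat shock by 1.85 in Q7 (adjusted p = 0.000135) and 2.78 in Q111 cells (adjusted p = 8.03e-06). At 33 °C Id1 and Id4 differed by -2.14 and -4.64 (Q111 minus Q7), and Tcf12 by 0.53. Of 10 measured stromal surface markers 7 fell and none rose in each line after heat shock, with medians of -0.95 and -1.04. Of all genes 18.1% fell in Q7 and 28.2% in Q111 cells. Vcam1 changed by -1.06 and -2.06 in Q7 and Q111 cells, and Itgb3 by -2.01 in Q7 cells.

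The genes whose levels most resembled each member over the 12 arrays were found among 7144 genes with group means that span at least 1 log2 unit, by the root mean square difference after each gene's own mean was removed. For Zeb1 they were Zmiz1 (0.14) and Ago1 (0.15), and for Prrx1 Nln (0.11) and Usp47 (0.12). For Pdgfrb they were Zyx (0.23) and Dnm1 (0.23), and for Zeb2 Ccser2 (0.22) and Nhsl1 (0.25). Twist2 had Nbeal2 (0.17) and Setd6 (0.20), and Snai1 had Unc119 (0.21) and Slc27a4 (0.24). For Pdgfra, whose means spanned 5.14 log2 units, even the nearest, Car12 and Nipal1, were 0.59 and 0.60 away. Twist1, Snai2 and Thy1 spanned less than 1 and were not compared.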

How the data were processed

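RNA of 12 samples, 3 in each of 4 groups, was read on Affymetrix arrays. The authors deposited log2 levels for each probe set, made with RMA, per the submitters' processing notes; RMA corrects background, normalizes quantiles and summarizes probes. Its version is not given in the sources used here.

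Of 45101 probe sets, 64 were controls, 34945 named 1 gene, 932 named several and 9160 were unnamed; symbols were updated by gene identifier for 34741. Each of 18193 genes was represented by its brightest probe set, and all 45037 non-control probe sets were also tested separately. limma 3.58.1 (R 4.3.3) tested 5 contrasts of the 4 groups in 1 fit to the 12 arrays (residual degrees of freedom 8). Tests were two-sided; p-values were adjusted by Benjamini-Hochberg across genes, and a gene was called when its adjusted p fell under 0.05. The fit was tested on simulated data. Scanner files were not used here, and the number of arrays limits precision. Promoter letters came from RefSeq.

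The members and gene lists were chosen with earlier results of these data known. Genes named were the members, Htt, the 2 nearest genes of each member with group means spanning at least 1 log2 unit, up to 3 called genes of each list with the largest change, and Cdh1, Cdh2, Vim and the PDGF ligands.

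The labels number the replicates. Deviations from group means correlated between same-numbered untreated arrays of the lines (r = 0.52, 0.40 and 0.58), so these were treated as paired in an added fit. Alternatives tried were a gene's mean over probe sets, each set separately, 3 other scalings, brighter genes only, a variance trend, only the groups compared, the replicate block, the actin level as a covariate, an adjusted p under 0.01 and each array left out.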

Additional observations from a re-analysis of the deposited data

Results flagged for a closer look

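The test of the difference between the heat shock effects in the lines passed for the 9 list genes named here, at most 3 from each list. Of all genes 5.72% passed this test. Of 22 measured other mesenchymal factors 4 passed, all with negative differences, and 3 of them are named. For Cdh1 the fitted difference was 2.18 (Q111 minus Q7, SE 0.30, limma adjusted p = 0.00361), but Cdh1 was in background range at both temperatures in Q111 cells, where no fall could be read, so this value does not compare 2 measured effects; in Q7 cells it fell at least 2.42-fold. Smad3 differed by -1.99 (adjusted p = 0.00184), Tgfb3 by -1.79 (adjusted p = 0.0308) and Col1a2 by -1.73 (adjusted p = 0.00961). Col1a2 changed by 0.83 in Q7 and by -0.91 in Q111 cells. Tagln differed by 2.01 (adjusted p = 0.0411), with -0.12 in Q7 and 1.89 in Q111 cells. Among other mesenchymal factors, Osr2 differed by -1.93 (adjusted p = 0.043), Osr1 by -1.91 (adjusted p = 0.0431), both with mean levels near the background bound after heat shock in both lines (5.01 to 5.44), which limits the fall that can be read, and Foxc2 by -1.40 (adjusted p = 0.0464). Ajuba, a binding partner of Snail factors, differed by -0.96 (adjusted p = 0.0227), with 0.55 in Q7 and -0.40 in Q111 cells. None of the 10 members passed this test, and 2 did at an unadjusted p under 0.05.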

How the results depend on the processing

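Over 1145 refits of 50 member results, 1034 kept direction and side of the threshold, 38 lost a call, 24 gained one, 47 uncalled values changed sign and 2 reversed with a call. Both reversals came in Q111 heat shock with arrays centred on the median of genes: Snai2 0.64 and Thy1 0.68, the latter in background range on every array, so that its value is the shift of the centring and no measured change. That centring also turned Cdh1 (0.72), Vim (0.44), Cdh2 (0.30), Pdgfb (0.55) and Pdgfc (0.50) there, and the mean of all probe sets turned Plcg1 in Q7 (0.14) and Q111 cells (0.10). The shift of that centring is its construction; the cause of the Plcg1 change was not tested.

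Members called fell to 0 for heat shock in Q7 cells with the actin covariate (limma; 2 at an unadjusted p under 0.05) and to 3 at an adjusted p under 0.01. For the difference of effects they rose to 1 with the replicate block (Zeb2, adjusted p = 0.0406), and for the lines after heat shock fell to 3 with the mean of probe sets and to 2 at an adjusted p under 0.01. The replicate block covered all arrays and so tied heat-shocked arrays by number too. Deviations of same-numbered heat-shocked arrays of the lines correlated at r = 0.35, -0.50 and -0.32, which gives no ground for that pairing. This block also gave calls to Twist2 (adjusted p = 0.0327) and Zeb2 (adjusted p = 0.0328) for heat shock in Q7 cells.

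Counts over all genes moved as follows. With the actin covariate 436 genes passed for heat shock in Q7 cells, 4381 in Q111 cells and 407 for the difference. At an adjusted p under 0.01, 3498, 5719, 224, 1255 and 2239 passed in the 5 comparisons in the order heat shock in Q7, in Q111, difference, lines at 33 °C and lines after heat shock. With median centring 13331 passed for heat shock in Q111 cells and 6291 for the lines after it, and the share of higher calls went from 21.2% to 62.1% for the difference and from 29.8% to 72.6% for the lines after heat shock. With brighter genes only 5567 passed for Q111 heat shock and 1046 between the untreated lines. The untreated arrays alone with the replicate block, chosen after the data were seen, gave 3600 for the lines at 33 °C, and only the groups compared gave 2674 after heat shock.

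Leaving out each array in turn gave 4 to 6 members and 4060 to 6598 genes for heat shock in Q7 cells, 5 to 6 and 7205 to 8572 in Q111 cells, 0 to 1 and 379 to 1238 for the difference, 3 to 4 and 1470 to 2401 for the lines at 33 °C, and 3 to 6 and 2594 to 4152 after heat shock. For the difference, 379 came without the third heat-shocked Q7 array. Levels under the background bound limit what can be said of Thy1, 3 other member probe sets and, in Q111 cells, Pdgfb and Pdgfd.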

Other observations

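Transcription factors of mesenchyme outside the 10 members also differed between the lines. At 33 °C Foxc1, a forkhead factor of mesenchyme, was higher in Q111 cells by 2.05 (SE 0.27, limma adjusted p = 0.000319), Tbx15 by 1.98 (adjusted p = 0.000111) and Osr2 by 1.83 (adjusted p = 0.00409). Of 22 measured factors in this list 4 were higher and 3 lower, where 5.11% of all genes were higher and 5.68% lower. After heat shock Shox2 differed by -3.19 (Q111 minus Q7, adjusted p = 3.34e-07) and Foxf1 by -1.79 (adjusted p = 0.000252). In all, 1 factor was higher and 6 lower, where 6.58% of all genes were higher and 15.5% lower. The factor counts after heat shock became 6 and 6 with arrays centred on their median. With that centring 72.6% of all called genes were higher, and the median difference over all genes was 0.37.

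Effector genes of the mesenchymal state also differed at 33 °C. Col1a2, a fibrillar collagen chain, was higher in Q111 cells by 3.48 (SE 0.21, adjusted p = 9.18e-07) and Tgfbi by 3.28 (adjusted p = 6.32e-06), while Tagln was lower by -2.32 (adjusted p = 0.00101). Of 21 measured effectors 4 were higher and 2 lower, beside 5.11% and 5.68% of all genes. Among stromal surface markers Vcam1 (-3.13), Pdpn (-2.83) and Cd34 (-2.23) were lower in Q111 cells, with 5 of 10 lower and none higher. After heat shock Btrc, a ubiquitin ligase subunit that acts on Snail proteins, fell by 1.64 in Q7 cells and fell by 2.60 in Q111 cells.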
